A study of Mus musculus with 4 samples.

Results

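The genes described here are 8 genes of antigen presentation by major histocompatibility complex (MHC) class II molecules and Cd274, the gene of the checkpoint ligand PD-L1. They are 9 of the 78334 gene identifiers in the deposited table and were picked by symbol: Cd74, H2-Aa, H2-Ab1, H2-Eb1, H2-DMa, H2-DMb1, Ciita, Ctss and Cd274. Polyadenylated RNA was counted in wild-type mouse cells panned with Thy1 and sorted for mCherry as retinal ganglion cells, whose axons run to the brain in the optic nerve, 2 weeks after that nerve was crushed. Both sexes were used. An adeno-associated virus of serotype 2 that carried mCherry had been put into the vitreous at 8 weeks of age, 2 weeks before the crush. In one group it also expressed an shRNA against the microRNA miR-132-3p (the anti-miR132 group), and in the other a scramble shRNA (the scramble group). Every group thus had crushed nerves and virus, and no uninjured or uninjected group was analysed here. Each group pooled 10 retinas, and each library was made from about 5000 sorted cells, so the libraries of a group are not known to come from separate animals.

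MHC class II molecules are pairs of an alpha and a beta chain that show peptides from the endosome to CD4 T cells. The invariant chain Cd74 holds the new pair until proteases, above all cathepsin S, degrade it, and the H2-DM dimer then helps peptides to load. Dendritic cells, B cells and macrophages carry class II molecules at rest. Interferon-gamma induces them in many other cells through the transactivator Ciita, and in the injured retina they are known mainly from activated microglia and infiltrating macrophages. PD-L1 restrains T cells through the receptor PD-1 and is also inducible by interferons.

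There were 2 libraries per group, with totals of 1845090 and 1846637 counts for scramble and of 1732416 and 1731199 for anti-miR132. The libraries of a pair differed by no more than sampling noise, as a chi-square test over genes gave 1.02 (p = 0.095) and 1.00 (p = 0.49) per degree of freedom within the pairs and 4.01 to 4.03 across groups. Each pair therefore counts as 1 sample (n = 1 per group) with no SD. Levels are in CPM, the counts scaled to a common library size with TMM factors. Folds are ratios of counts summed over a pair, with exact Clopper-Pearson 95% intervals that cover counting error only. The p-values of edgeR's quasi-likelihood test set the reads of 1 pair of libraries against the other pair, and do not test the conditions. In bulk RNA, a change in the number of cells of a type and a change in RNA per cell cannot be told apart. Both vectors carry mCherry. The columns that bear its name were assigned to the scramble group by exclusion, as the other columns name miR132, and every direction below rests on that.

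The sequences that frame the comparison are the microRNA and the stretches in front of the genes. The mature miR-132-3p from RefSeq is shown with its seed, bases 2 to 8, in capitals, since it is what the hairpin targets.

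mmu-miR-132-3p: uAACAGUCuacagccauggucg

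The letters that pair with this seed, GACTGTT, occurred in none of the longest annotated 3′ untranslated regions of the 9 genes in GENCODE M21, which ran from 218 bases for Ctss to 2683 for Cd274. They occurred in 2252 of 21028 genes with such a region, 10.7%. The level of the mature microRNA was not measured in these counts of polyadenylated RNA, so its loss could not be checked.

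Class II genes are known for a shared promoter layout, an X box bound by the RFX complex and CREB and a Y box bound by NF-Y, on which Ciita assembles. RefSeq's promoter table (build GRCm38.p6) held 6 of the 9 genes. It had no entry for Cd74, H2-Ab1 and Ciita. The 150 bases before the start site are printed for members that were higher and for members that were not, so that both can be compared. Capitals mark matches on either strand to the Y box core GATTGG, the X1 box core (AGNAAC, any 2 bases, then ATG) and the interferon-stimulated response element (GAAA, any 2 bases, then GAAA). The gamma-activated site TTCNNNGAA was searched as well. No match of 1 motif overlapped another. The printed stretches lie at chr17:34287824-34287973 (minus strand) for H2-Aa, chr17:34305717-34305866 (plus) for H2-Eb1, chr17:34153041-34153190 (plus) for H2-DMb1, chr17:34122682-34122831 (plus) for H2-DMa, chr3:95526636-95526785 (plus) for Ctss and chr19:29367288-29367437 (plus) for Cd274.

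H2-Aa: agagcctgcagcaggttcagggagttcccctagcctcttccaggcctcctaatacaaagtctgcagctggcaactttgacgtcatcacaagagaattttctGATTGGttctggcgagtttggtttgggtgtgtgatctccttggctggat
H2-Eb1: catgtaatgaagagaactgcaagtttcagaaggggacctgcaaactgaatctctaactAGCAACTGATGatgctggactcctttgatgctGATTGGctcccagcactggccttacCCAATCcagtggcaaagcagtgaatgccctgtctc
H2-DMb1: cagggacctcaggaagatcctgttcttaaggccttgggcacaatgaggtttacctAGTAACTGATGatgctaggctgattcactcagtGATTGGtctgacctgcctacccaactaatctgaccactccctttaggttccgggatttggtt
H2-DMa: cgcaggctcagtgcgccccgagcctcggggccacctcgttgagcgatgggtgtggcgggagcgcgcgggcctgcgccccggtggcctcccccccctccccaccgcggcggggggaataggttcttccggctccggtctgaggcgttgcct
Ctss: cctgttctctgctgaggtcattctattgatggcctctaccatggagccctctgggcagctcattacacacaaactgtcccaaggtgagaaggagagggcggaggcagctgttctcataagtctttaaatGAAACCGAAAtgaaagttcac
Cd274: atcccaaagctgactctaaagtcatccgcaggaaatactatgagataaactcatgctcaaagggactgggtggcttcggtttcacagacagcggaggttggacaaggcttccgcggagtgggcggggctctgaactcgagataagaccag

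The Y box letters stood in front of H2-Aa, H2-Eb1 and H2-DMb1, and the X1 letters in front of H2-Eb1 and H2-DMb1. Of 32851 promoter windows of this length, 10.9% held the Y box letters, 0.411% the X1 letters and 0.0426% both. The response element letters were found before Ctss and in 1.59% of all windows. None of the 4 motifs matched in the window of Cd274 or in either window of H2-DMa, and the gamma-activated site, present in 4.09% of windows, matched in none of the 6 genes. The second window of H2-DMa, not printed, lies at chr17:34125368-34125517 (plus). Sequence outside these windows was not searched, so boxes of H2-DMa elsewhere would have been missed. H2-DMb1 matched both the X1 and the Y box core, as H2-Eb1 did, and had 2 counts in all. A match is a description of the sequence and does not show that a factor binds there.

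Most of the class II genes that could be measured were higher in the anti-miR132 group. Cd74 and Ctss stood far above the scramble level at 26.4-fold and 26.7-fold, H2-Ab1 at 8.20-fold and Cd274 at 4.04-fold. The exceptions were H2-Aa, whose interval included 1, H2-DMa, for which no difference was detected, and Ciita and H2-DMb1, with too few counts for any fold. Of the 7 genes with at least 10 counts over the 4 libraries, 5 were at least 2-fold higher with an interval above 1 and 0 were lower, against 4.48% and 1.77% of all 14993 genes with as many counts. Of these 5, Cd74, H2-Ab1, H2-Eb1 and Ctss had only 5, 6, 1 and 2 scramble counts. They reached the minimum of 10 only with their anti-miR132 counts, which favoured a higher fold in advance, so this count is a description. edgeR's quasi-likelihood test, fitted over 11427 genes that passed filterByExpr, called Cd74, H2-Ab1, Ctss and Cd274 higher (adjusted p under 0.05), where 13.5% of all tested genes were called higher and 10.4% lower. Of the 9 genes, 5 passed the filter. Cd74, H2-Ab1 and Ctss passed it through the anti-miR132 libraries alone and so had to differ, and these counts are a description. All 4 calls were lost on leaving out any 1 of the 4 libraries and with no low-count filter; at an unadjusted p under 0.05, 4 to 5 members were then still higher.

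**Figure D1:**
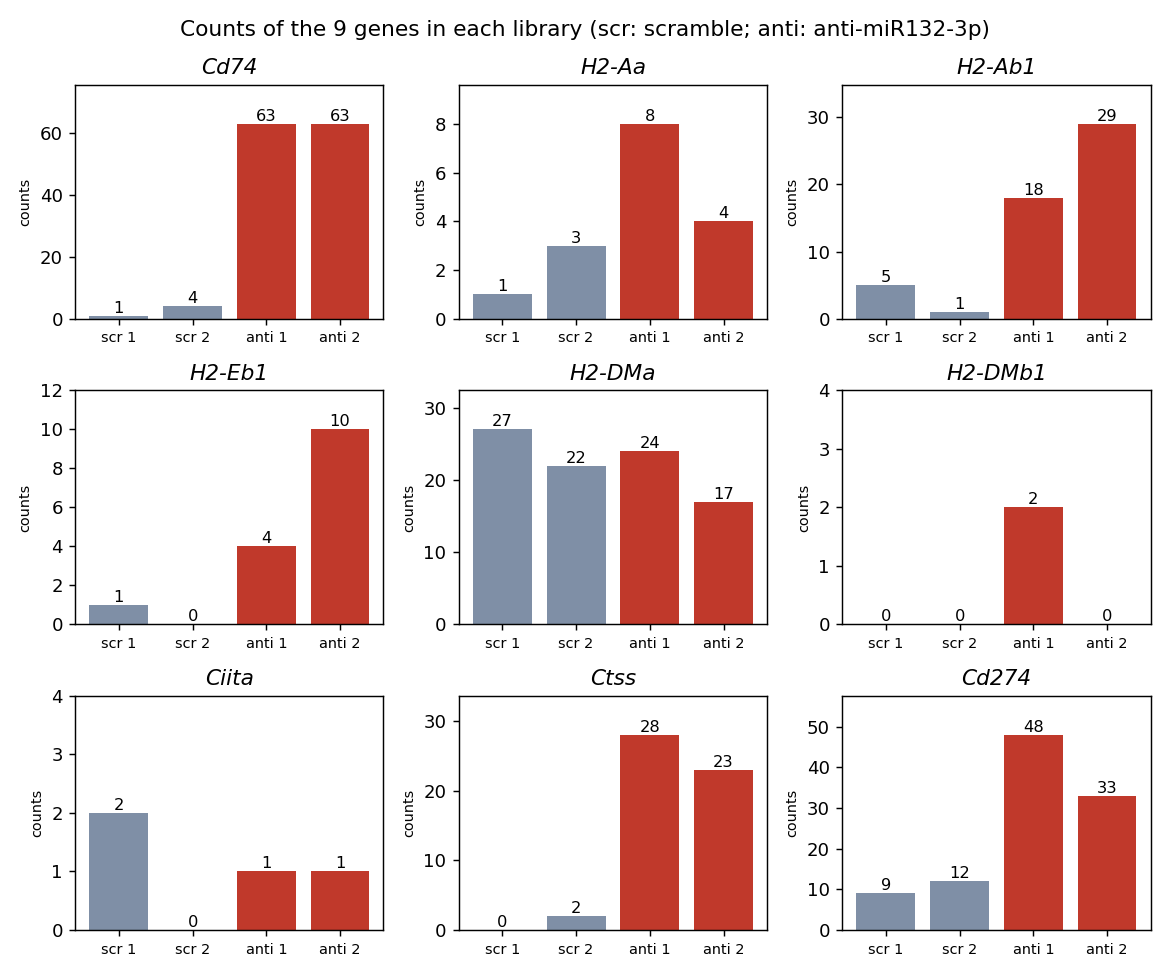
Counts of each of the 9 genes (y axis, from 0) in the 2 scramble libraries (blue-grey) and the 2 anti-miR132 libraries (red). Cd74 had 63 counts in both anti-miR132 libraries against 1 and 4, while H2-DMa overlapped between groups and Ciita and H2-DMb1 had at most 2 counts in any library.

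Cd74, the invariant chain, had 1 and 4 counts in the scramble libraries and 63 and 63 in the anti-miR132 group. The groups lay far apart, at 1.37 CPM and 36.0 CPM. The sum was 26.4-fold higher (11.0 to 82.6), with an adjusted p of 2.6e-07 in edgeR's quasi-likelihood test. On so few scramble counts the log2 fold of 4.72 was 4.04 without scramble replicate 1 and 6.04 without scramble replicate 2.

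Of the antigen-binding chains, H2-Ab1, the beta chain of the I-A molecule, was measured best. It had 5 and 1 counts in the scramble group and 18 and 29 in the anti-miR132 group. These groups did not overlap, and the fold was 8.20 (3.50 to 23.5), with an adjusted p of 0.00046 in edgeR's quasi-likelihood test. Its log2 fold of 3.04 was 4.62 without scramble replicate 1 and 2.30 without scramble replicate 2, and 2.65 without anti-miR132 replicate 2. H2-Aa, the alpha chain that pairs with it, had 1 and 3 counts against 8 and 4. Its libraries did not overlap either, but the fold of 3.14 had an interval from 0.951 to 13.4 and so was not distinguishable from no difference at this depth. With 1 library left out, its log2 fold of 1.65 ranged from 1.07 to 2.65. H2-Eb1, the beta chain of I-E, had 1 and 0 counts against 4 and 10, a fold of 14.6 (2.23 to 619). Its log2 fold of 3.87 was 2.87 without scramble replicate 2 and 3.06 without anti-miR132 replicate 2. H2-Aa and H2-Eb1 did not pass the low-count filter. The 3 chains together held 11 counts against 73, 6.94-fold higher (3.66 to 14.5).

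Of the genes of peptide loading, H2-DMa, the alpha chain of the loading dimer, had 27 and 22 counts in the scramble group and 24 and 17 in the anti-miR132 group. The groups overlapped, and the ratio of 0.875 (0.564 to 1.35) leaves room for a difference of either sign (adjusted p = 0.68 in edgeR's quasi-likelihood test). In GENCODE M21 its exons share 360 bases with Brd2, a gene of the opposite strand with 533 counts against 492, and since the strand setting is not given in the sources used here, the counts of H2-DMa may include reads of Brd2. H2-DMb1, its partner chain, had 0 and 0 counts against 2 and 0, which is at or under the floor of 3 counts over a group. Reads of H2-DMb1 and of its near copy H2-DMb2, which had 0 counts, could have been split or left out by the counting, and the same holds for H2-Eb1 and H2-Eb2.

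Ciita, the transactivator of class II genes, had 2 and 0 counts in the scramble group and 1 and 1 in the anti-miR132 group. Both sums of 2 lie under the floor, so no difference in Ciita was detectable at this depth. Its exons share 329 bases with Dexi on the opposite strand in GENCODE M21, and Dexi had 17 counts against 33.

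Ctss, cathepsin S, which trims the invariant chain, had 0 and 2 counts in the scramble group and 28 and 23 in the anti-miR132 group. It was 26.7-fold higher (7.02 to 226), with an adjusted p of 3.5e-05 in edgeR's quasi-likelihood test, and both anti-miR132 libraries were far above both others. The log2 fold of 4.74 was 3.74 without scramble replicate 1; without scramble replicate 2 the scramble side was at 0.

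Cd274, the checkpoint ligand, had 9 and 12 counts in the scramble group and 48 and 33 in the anti-miR132 group, or 5.74 and 23.2 CPM. The groups did not overlap, and the fold was 4.04 (2.47 to 6.87), with an adjusted p of 0.00029 in edgeR's quasi-likelihood test. An antisense gene that shares 511 exon bases with Cd274 in GENCODE M21 had 0 counts against 1.

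**Figure D2:**
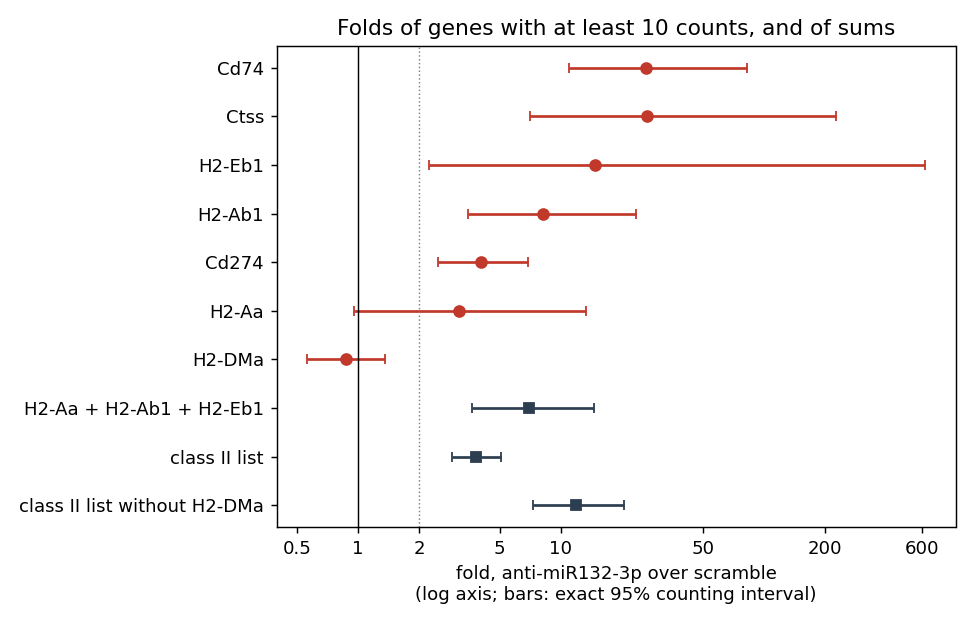
Folds of the anti-miR132 over the scramble group (log axis) with exact 95% counting intervals for the 7 genes with at least 10 counts (circles) and for sums of genes (squares). The solid line marks no difference and the dotted line 2-fold; 5 of the 7 intervals lie above 1, and those of H2-Aa and H2-DMa include it.

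The folds differed among these genes by more than counting error in several pairs. The fold of Cd74 was 29.6 times that of H2-DMa (10.9 to 102) and 6.48 times that of Cd274 (2.26 to 22.9). The fold of Cd274 was 4.57 times that of H2-DMa (2.34 to 9.18). The fold of Cd74 was 8.17 times that of H2-Aa (1.43 to 44.0). In contrast, Cd74 and Ctss could not be told apart (ratio of folds 0.988, 0.0913 to 6.28), nor H2-Ab1 and H2-Eb1 (0.564, 0.0114 to 5.29) or H2-Ab1 and Cd274 (2.02, 0.722 to 6.57). These are 7 of 12 pairs compared, and their intervals are not adjusted for that number.

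Per length of exon, the order of the levels was not the same in the groups. In the anti-miR132 group the level was 21.5 CPM per kb for Cd74, 10.7 for Ctss, 6.40 for Cd274, 5.23 for H2-Ab1 and 3.40 for H2-DMa. H2-Eb1 followed at 2.06, H2-Aa at 0.904, H2-DMb1 at 0.340 and Ciita at 0.0600. In the scramble group H2-DMa led at 3.88 CPM per kb, before Cd274 at 1.58, and Cd74 was at 0.814, H2-Ab1 at 0.639 and Ctss at 0.403. Cd74 thus held 51.4% of the counts of the class II list in the anti-miR132 group and 7.46% in the scramble group, and H2-DMa 16.7% and 73.1%. With 1 sample per group, no spread between samples can be set beside this order.

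The class II list of 11 genes adds H2-Eb2, H2-DMb2, H2-Oa and H2-Ob to Ciita, Cd74 and the chains. Those 4 genes held 0 counts against 1, with 3 of them at 0 in every library, and Y box letters stood in front of each. The summed list had 67 counts against 245, 3.83-fold higher (2.91 to 5.09). Without H2-DMa, whose counts may include Brd2, it had 18 against 204, 11.9-fold higher (7.32 to 20.4), and without Cd74 it had 62 against 119, 2.01-fold higher (1.47 to 2.78). In this list 3 genes were tested, of which 2 were called higher and 0 lower. Of all 11427 tested genes, 13.5% were called higher and 10.4% lower, and the median log2 fold change was -0.0030. These shares are the background for the calls in this and the following lists.

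The factors that bind class II promoters did not pass the test in either direction. Of 10 genes in the list, 9 were tested, with 0 called higher and 0 lower and a median log2 fold change of 0.06, and at an unadjusted p under 0.05 there were likewise 0. Rfx5, which binds the X box, had 47 counts against 63 (1.40-fold, 0.946 to 2.09). Crebbp, a coactivator, was at 348 and 339 CPM, and Creb1, which binds the X2 box, at 118 and 109 CPM. Their summed level was 631 CPM in the scramble group and 622 CPM in the anti-miR132 group.

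Other genes of endosomal processing, several of them abundant, had modest changes in both directions. The list has 13 genes with Ctss, and 2 of the 10 that were tested passed as higher and 3 as lower, at a median log2 fold change of -0.14. Ctss passed the filter through the anti-miR132 libraries alone and so had to differ. Without it, 1 of 9 passed as higher and 3 as lower. Ctsb, cathepsin B, was at 1380 CPM against 1352 CPM, and Ctsl, cathepsin L, at 348 against 381 CPM, and neither was called. Sppl2a, the intramembrane protease that clears the last fragment of the invariant chain, was 2.00-fold higher (1.49 to 2.71). The inhibitors Cst3, cystatin C, and Cstb, cystatin B, were 1.31-fold (1.18 to 1.45) and 1.37-fold lower (1.17 to 1.61), and Lgmn, legumain, was 1.21-fold lower (1.09 to 1.34). Marchf1 and Marchf8, ligases that remove class II molecules from the surface, and Cd83, which opposes them, were tested and 0 of these 3 were called. Marchf8 had 131 counts against 159 and Cd83 had 100 against 89.

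Among 18 genes of checkpoint and costimulation, 9 could be tested, and 3 of them passed as higher and 2 as lower, at a median log2 fold change of 0.23. Of the 3, Lgals9 passed the filter through the anti-miR132 libraries alone and so had to differ. Without it and Cd274, 1 of 7 passed as higher and 2 as lower, with a median of 0.11. Besides Cd274, Lgals9, the gene of galectin-9, had 4 counts against 31 (8.11-fold, 2.87 to 31.6), and Nectin2, an adhesion molecule and ligand of T cell receptors, was 2.19-fold higher (1.51 to 3.21). Cd47, the signal against phagocytosis, fell from 1001 to 857 CPM (1.17-fold lower, 1.11 to 1.23), and Cd200, an inhibitory ligand for microglia, also by a factor of 1.17 (1.06 to 1.29). The costimulatory ligands Cd80 and Cd86 had 2 counts against 1 and 1 against 1, Pdcd1lg2, the other ligand of PD-1, had 3 against 2, and Cd40 and Pdcd1 had 0 in all libraries. Pvr, a ligand of T and NK cell receptors, had 96 counts against 84, and Cmtm4 and Cmtm6, which keep PD-L1 at the membrane, had 72 against 74 and 36 against 45. None of these 3 was called.

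In the interferon-gamma axis, 8 of the 15 genes reported here could be tested, of which 2 passed as higher and 0 as lower, at a median log2 fold change of 0.16. They were Stat2 (2.60-fold, 2.07 to 3.27) and Irf9 (1.91-fold, 1.47 to 2.49), transcription factors that act mainly after type I interferon. The receptor genes Ifngr1 and Ifngr2 were at 23.5 and 21.4 CPM and 88.8 and 88.9 CPM, the kinase gene Jak1 had 1185 counts against 1205, and Ifng itself had 0 in all libraries. Irf1, which acts on the Ciita promoter, had 7 counts against 12 (1.79-fold, 0.651 to 5.38). Nlrc5, the class I counterpart of Ciita, had 7 against 18 (2.69-fold, 1.07 to 7.62). Socs1 had 15 against 30 (2.09-fold, 1.09 to 4.19) and Socs3 1 against 9 (9.42-fold, 1.30 to 413). Nlrc5, Socs1 and Socs3 did not pass the low-count filter and were named after their values were seen. Of the 15 genes, 13 had a higher CPM in the anti-miR132 group and 1 had a lower one. Among the 13, Ifngr2 (1.00-fold) and Ptpn2 (1.04-fold) were nearly level, and their unscaled counts were lower, at 325 against 311 and 179 against 178. The share of all genes with a higher CPM was not computed. The sum of the 15 genes was 1.19-fold higher (1.12 to 1.26).

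**Figure D3:**
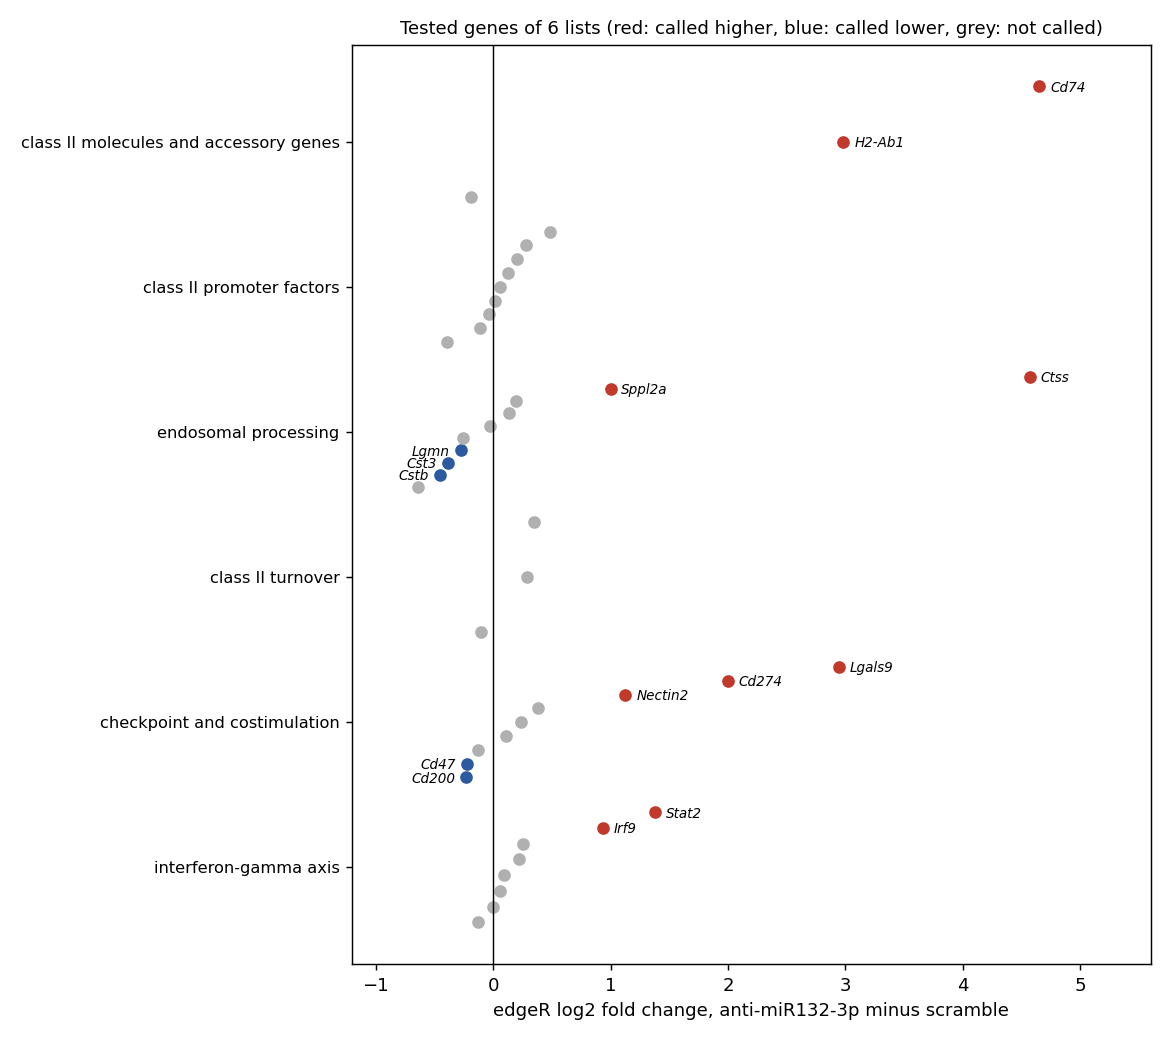
edgeR log2 fold change (anti-miR132 minus scramble) of tested genes in 6 lists, 1 point per gene, red where called higher, blue where called lower and grey where not called. Cd74 and Ctss lie above 4, whereas the promoter factors lie within 0.5 of no change.

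Markers of other cells that carry class II molecules were set beside these genes. Of 22 microglia markers, 5 were at 0 in all libraries, among them Itgam and Trem2, while 14 had more counts in the anti-miR132 group and 3 had fewer. The whole list summed to 106 and 83 counts in the scramble libraries and 117 and 150 in the anti-miR132 libraries, 1.48-fold higher (1.22 to 1.79). C1qb, a complement gene, had 0 counts against 17, Csf1r, a growth factor receptor, 2 against 13, Ptprc, the leukocyte antigen CD45, 0 against 8, Cx3cr1 0 against 6 and Tmem119 0 against 4. These single markers moved with Cd74, Ctss and H2-Ab1, and their part in those results was not tested.

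The 15 macrophage and monocyte markers held 27 and 41 counts against 33 and 23, and their members were opposed. Cd68, a lysosomal gene of phagocytes, was lower, with 42 counts against 16 (adjusted p = 0.028 in edgeR's quasi-likelihood test), and Cd14, a receptor for bacterial lipopolysaccharide, had 20 against 18. The other 13, a division made with the values in view, held 3 and 3 counts against 11 and 11, 3.84-fold higher (1.51 to 11.6). Of these 13, 8 had a higher CPM in the anti-miR132 group, 0 had a lower one, and 5 were at 0 in all libraries, Spi1 and Mrc1 among them. Among the 8, Adgre1 had 2 counts against 2 and Cd52 2 against 3. The part of the 13 genes in the class II results was not tested. The 9 dendritic cell markers held 62 against 63, of which Zbtb46 alone had 51 and 56, while Itgax, Xcr1 and Clec9a were at 0. The 7 B cell markers had 2 against 4 counts, too few to show a difference, with Cd79a, Cd79b and Ms4a1 at 0, and the 10 T and NK cell markers had 2 against 0, under the floor. The 7 endothelial markers summed to 12 counts against 37 (3.23-fold, 1.65 to 6.80), much of it from Flt1, a VEGF receptor, at 3 against 21. Flt1 passed the filter through the anti-miR132 libraries alone and so had to differ. Kdr had 7 against 12 (1.79-fold, 0.651 to 5.38), Pecam1 2 against 3 and Tek 0 against 1, and Cldn5, Cdh5 and Emcn were at 0. The part of these markers in the class II difference was not tested. A 0 in this table is not proof of absence: Gad1, an enzyme of GABA synthesis, was at 0 in all libraries while its partner Gad2 had 1365 and 1795 counts.

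**Figure D4:**
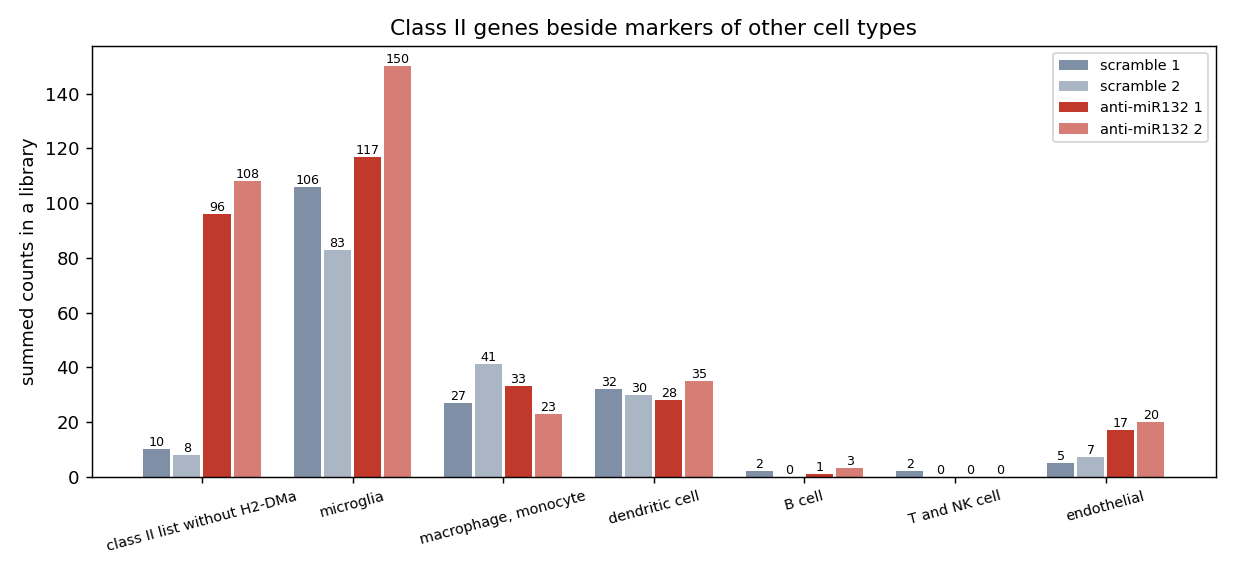
Summed counts in each library (y axis, from 0) of the class II list without H2-DMa and of marker lists of other cell types, scramble in blue-grey and anti-miR132 in red. The class II sums were 10 and 8 against 96 and 108 and the microglia sums 106 and 83 against 117 and 150, while the macrophage and dendritic cell sums overlapped between groups.

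Markers of the labelled cell type were present at levels far above those of the class II genes. The 10 ganglion cell markers, led by the neurofilament gene Nefl, summed to 1853 CPM for scramble and 2046 for anti-miR132. Of 9 tested, 3 passed as higher and 1 as lower. Amacrine markers summed to 2126 and 2298 CPM. The 9 markers of Müller glia and astrocytes summed to 1226 and 1774 CPM, most of it Dkk3, with 3955 counts against 5577, and Apoe, the gene of a lipid carrier, had 69 against 218. The other 7, again divided with the values in view, had 463 counts against 409 (0.924-fold, 0.807 to 1.06), with 2 higher and 5 lower in count. Rod markers were 5.47-fold lower (4.05 to 7.52). The part of these lists in the class II results was not tested. The libraries therefore held RNA of several retinal cell types, and the cell that carries a class II transcript cannot be read from these counts.

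By distance of log2(CPM + 1) profiles, each centred on its own mean over the 4 libraries, the tested genes nearest to Cd74 outside the 9 were Irf7 (distance 0.751), Ifi44 (0.778), Gbp2b (0.815), Gbp3 (0.946) and Cxcl13 (0.966). Irf7, Ifi44 and Gbp2b had 0 counts in the scramble group and 50, 49 and 70 in the anti-miR132 group. Gbp3 had 10 against 141 counts and Cxcl13, a chemokine, 14 against 141. The likeness rests on 1 difference between 2 samples.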

How the data were processed

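The authors deposited whole-number counts for 78334 versioned Ensembl genes in 4 libraries. The programs named per the submitters' processing notes are HISAT2 2.2.1 after Trimmomatic 0.39, with SAMtools 1.10 and the Cufflinks suite, on GRCm39. No source used here gives the read counter, annotation release or strand setting. Symbols were matched to 51486 genes; the rest held at most 0.437% of a library. Counts were fitted over all genes in R 4.3.3 with edgeR 4.0.16 (filterByExpr, TMM, glmQLFit, glmQLFTest, Benjamini-Hochberg), after the code was tested on simulated data. DESeq2 1.42.0 and limma 3.58.1 served as alternatives. Exon lengths and overlaps came from GENCODE M21, of build GRCm38. The floor of 3 counts over a group equals 0.820 CPM for scramble and 0.858 CPM for anti-miR132. In 1 library alone, 3 counts would equal 1.62 to 1.73 CPM. By rule, the text names all 9 members, the called genes of each pathway list up to the 4 with the largest fold, its 2 most abundant uncalled genes, and the 5 genes nearest to Cd74. Further genes, mostly with few or 0 counts, and all single marker genes were picked with their values in view. The members, lists and motifs were chosen with earlier results of these data known. The values of 1 gene of the interferon-gamma axis and of 1 microglia marker are not reported here.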

Additional observations from a re-analysis of the deposited data

How the results depend on the processing

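The count of 4 members called higher by edgeR's quasi-likelihood test was kept with other scaling, the 5 CPM filter, DESeq2, limma-voom and a 2-fold minimum. With no low-count filter it was 0 (5 at an unadjusted p under 0.05), as were the 2 calls in the class II list, and 1 gene was called higher in all. Leaving out 1 library gave 0 to 0 members (4 to 5 at an unadjusted p under 0.05), 0 to 0 genes of the class II list and 0 to 0 of all genes, against 1540 in the full fit; the remaining library of that group was assumed to vary like the others. All genes called higher numbered 539 with DESeq2 and 451 with the 2-fold minimum. With the replicate block there were 1740 genes, 4 members and 2 genes of the class II list, and same-numbered libraries did not deviate together (correlation 0.0125), so the numbers do not pair the samples. The summed class II log2 fold of 1.94 was 1.01 without Cd74 and, in settings chosen after seeing the data, 3.57 without H2-DMa and 2.65 without both. Of 40 alternative folds of single members, 39 stayed within the counting interval, and H2-Ab1 without scramble replicate 1 was at 4.62. Folds of H2-Eb1 without scramble replicate 1 and Ctss without scramble replicate 2 had 0 counts on 1 side and were not computed. For the other changes the cause was not tested. Depth limits Ciita, H2-DMb1, H2-Aa and H2-Eb1.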
